A study of Mus musculus with 6 samples.

Results

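Leukocytes enter an artery wall in steps. Selectins on the endothelium catch passing cells and let them roll, chemokines on the vessel surface activate them, and adhesion molecules of the immunoglobulin family hold them firmly so that they can cross. In atherosclerosis this recruitment brings monocytes into the intima, where they become the macrophages of the plaque. Vcam1 encodes vascular cell adhesion molecule 1, which binds the integrin alpha4beta1 on monocytes and lymphocytes. Selp encodes P-selectin, stored in endothelial cells and platelets, which binds the ligand PSGL-1 on leukocytes. Cx3cl1 encodes fractalkine, a chemokine made as a membrane-bound protein whose receptor is Cx3cr1. Cxcl1 encodes a secreted chemokine that acts mainly on neutrophils through the receptor Cxcr2.

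These 4 genes, of 278 gene symbols in the study's list of mRNAs that differed between the diets, were measured by 5 of the 357 probes of that list, since Vcam1 has a pair of probes. The list was chosen on the same arrays by the same contrast of diets. The differences between the diets are therefore a description of the members, and no test of them is given. The samples were aortas of male mice homozygous for the loss of apolipoprotein E (ApoE(−/−)) on the C57BL/6 background. This deletion was shared by both groups and leads to atherosclerosis also without a high-fat diet. The normal diet group (3 animals) received standard chow, and the high-fat diet group (3 animals) received feed with 20% fat and 2.5% cholesterol, in both cases for 8 weeks. RNA of each sample was hybridised, with the single dye cyanine 3, to an Agilent array of lncRNA and mRNA probes.

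The probes that carry these measurements are 60 bases long, and the first 30 bases of each are shown, 5′ to 3′, because every value below rests on hybridisation to them.
Vcam1, A_51_P210956: tatatttttataggcaaatggtaaagaggt
Vcam1, A_52_P520495: aaccaagagtttggaagtaacctttactcc
Selp, A_51_P211854: atgcctgctttaagatctcctgggtcttcc
Cx3cl1, A_51_P196925: tcccagagcagaatgtgggccgtaacaatc
Cxcl1, A_51_P363187: agaagtgcagagagatagagtttagtatta
GC content over the whole probe was 35.0% and 40.0% for the Vcam1 probes, 41.7% for Selp, 45.0% for Cx3cl1 and 35.0% for Cxcl1, around the median of 41.7% over all probes. No other probe on the array shared a run of 16 bases with a member on either strand, except 1 probe that matched 16 bases of Vcam1 A_51_P210956 on the opposite strand. In the RefSeq annotation of GRCm38.p6, Vcam1 lies at chr3:116110020-116129688, Selp at chr1:164115264-164150026, Cx3cl1 at chr8:94772180-94782427 and Cxcl1 at chr5:90891245-90893121. The exon in which each probe lies was not analysed here.

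The 250 bases before the annotated start of Selp, Cx3cl1 and Cxcl1 (RefSeq, GRCm38.p6, plus strand) are shown as a description. Shared control of the members was not tested. Capitals mark matches, on either strand, to an NF-kB type motif (GGG, any 2 bases, TT, any 1 base, CC) and to TATAAA, the TATA box.
Selp, chr1:164115014-164115263: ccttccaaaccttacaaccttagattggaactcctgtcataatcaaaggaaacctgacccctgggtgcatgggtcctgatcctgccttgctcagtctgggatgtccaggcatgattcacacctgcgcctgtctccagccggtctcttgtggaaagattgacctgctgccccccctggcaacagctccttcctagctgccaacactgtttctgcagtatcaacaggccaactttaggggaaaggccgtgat
Cx3cl1, chr8:94771930-94772179: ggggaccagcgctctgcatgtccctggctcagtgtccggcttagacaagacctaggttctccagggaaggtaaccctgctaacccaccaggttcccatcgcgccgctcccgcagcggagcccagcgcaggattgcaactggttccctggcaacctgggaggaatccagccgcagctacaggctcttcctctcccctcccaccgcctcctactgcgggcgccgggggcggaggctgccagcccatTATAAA
Cxcl1, chr5:90890995-90891244: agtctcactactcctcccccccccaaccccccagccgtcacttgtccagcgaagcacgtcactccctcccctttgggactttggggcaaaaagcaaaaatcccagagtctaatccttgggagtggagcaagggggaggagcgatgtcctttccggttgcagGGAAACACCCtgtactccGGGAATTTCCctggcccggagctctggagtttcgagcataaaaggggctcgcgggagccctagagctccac
The Cxcl1 window held the NF-kB type motif at 89 to 80 bases before the start on the minus strand and at 71 to 62 bases before it on the plus strand. Of 32851 promoter windows of the same length, 4.11% held this motif. The Cx3cl1 window held TATAAA in its last 6 bases, a motif in 12.4% of windows, and GGGCGG, the GC box, at 27 to 22 bases before the start, a motif in 32.7%. The Selp window held TGANTCA, the AP-1 type, at 139 to 133 bases before the start, a motif in 6.75% of windows. A looser NF-kB type motif (GGG and CC with any 5 bases between them), in 45.8% of windows, matched once in Selp, 15 to 6 bases before the start, and overlapped both stricter matches in Cxcl1. A search on both strands for the STAT type TTCNNNGAA (7.02% of windows), the IRF type (GAAA, any 2 bases, GAAA, 2.98%) and the ETS type CCGGAAG (6.91%) found no match in the 3 windows.

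All 5 member probes were higher on every high-fat diet array than on any normal diet array. For Cxcl1 this order rests on the background subtraction. Values are log2 signals after quantile normalization, and 1 unit is a 2-fold difference. Slide 1 held normal diet replicates 1 and 3. Slide 2 held normal diet replicate 2 beside the 3 high-fat diet arrays. Negative control spots had a net signal of 31.6 and 32.2 on the arrays of slide 1, against 13.1 to 13.8 on those of slide 2, and 62.6% to 76.0% of the 91188 probes were detected. Keeping the probes that every array of either diet detected left 64467 probes, all 5 members among them. Over the kept probes the median difference between the diets was 0.01. Limma found 1 probe at a Benjamini-Hochberg adjusted p under 0.05 and 8688 at an unadjusted p under 0.05. Without normal diet replicate 2 the adjusted count was 8720, but each diet then has a slide of its own, and diet and slide cannot be told apart. With both criteria of the methods, a p that does not exceed 0.05 before adjustment and a 2-fold difference, 2.14% of kept probes were higher on the high-fat diet, and all 5 members were among them. They were chosen for this contrast by the study's own test, and Cxcl1 was kept only through the high-fat diet arrays, so nothing is read from this count. The share of kept probes with all 3 high-fat diet arrays above all 3 normal diet arrays was 8.88%.

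**Figure D1:**
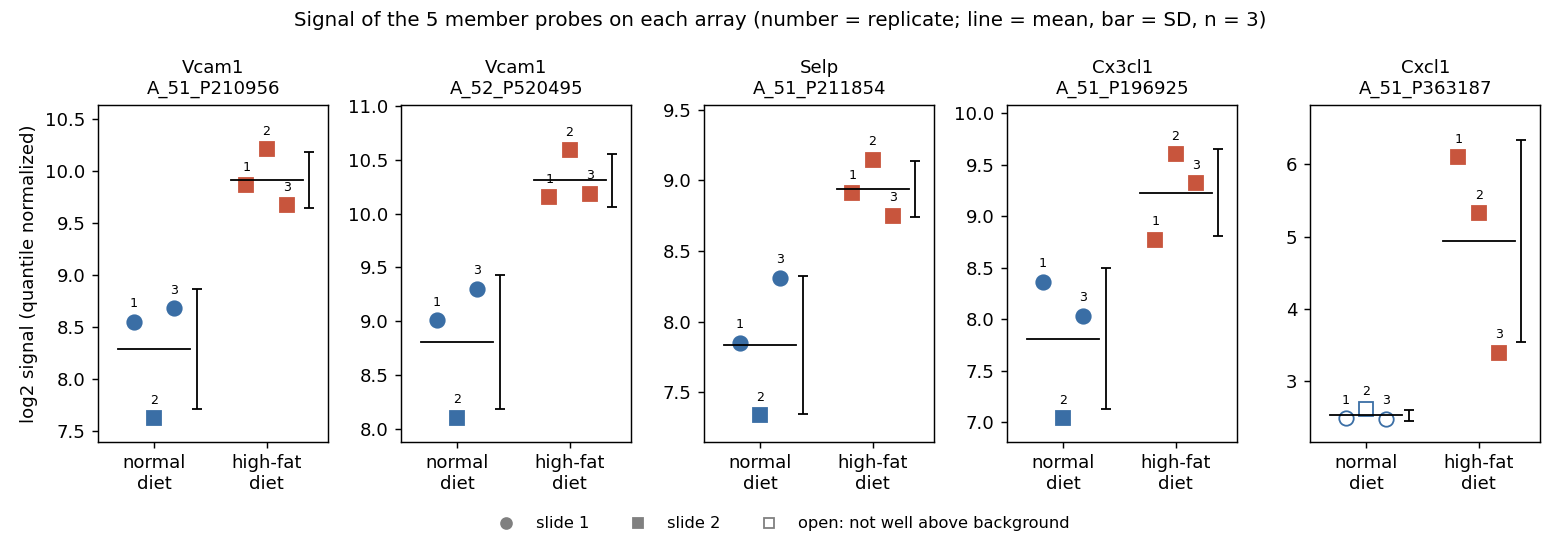
Quantile-normalized log2 signal (vertical axis, a separate range per panel) of each member probe on the normal diet (blue) and high-fat diet (red) arrays, with circles for slide 1, squares for slide 2, open symbols for spots not well above background, a line at the mean and a bar of 1 SD (n = 3). Every red point lies above every blue point of its panel, and normal diet replicate 2 is the lowest point except for Cxcl1.

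Vcam1 was measured by a pair of probes, both well above background on all arrays. Probe A_51_P210956 read 8.55, 7.62 and 8.68 on the normal diet, in the order of replicates 1, 2 and 3 that is used throughout, and 9.86, 10.21 and 9.67 on the high-fat diet. The means were 8.28 ± 0.58 and 9.91 ± 0.27 (SD, n = 3), a difference of 1.63 with a standard error of 0.31, or 3.09-fold. The lowest high-fat diet array was 0.99 above the highest normal diet array, so the groups were separated by almost 2-fold at their closest points. Of the 9 pairs of a high-fat and a normal diet array, 8 differed by at least 2-fold. Among kept probes 0.869% had a larger difference.

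The second Vcam1 probe, A_52_P520495, gave the same order of groups. It read 9.01, 8.10 and 9.30 on the normal diet and 10.16, 10.59 and 10.19 on the high-fat diet. The means were 8.80 ± 0.63 and 10.31 ± 0.24 (SD, n = 3), which differed by 1.51 (standard error 0.32), or 2.84-fold. The groups did not overlap, with a gap of 0.85, and 7 of the 9 pairs differed by at least 2-fold. As repeated readings of the same RNA, the probes deviated from their own means alike. Their deviations differed by at most 0.17 on any array, and their diet differences differed by 0.12.

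Selp had the smallest difference of the members. Its probe read 7.85, 7.34 and 8.31 on the normal diet and 8.91, 9.14 and 8.75 on the high-fat diet. The means were 7.83 ± 0.49 and 8.94 ± 0.20 (SD, n = 3), a difference of 1.10 (standard error 0.27), or 2.14-fold. The closest arrays, normal diet replicate 3 and high-fat diet replicate 3, were 0.44 apart, and 5 of the 9 pairs reached 2-fold. Selp was just inside the 2-fold limit of the list. Without normal diet replicate 2 the difference was 0.85, and it was just below 2-fold, at 1.00, when high-fat diet replicate 2 was left out. Among kept probes 2.78% had a larger difference.

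Cx3cl1 lay between Selp and Vcam1 in its difference. Its probe read 8.36, 7.04 and 8.03 on the normal diet and 8.77, 9.60 and 9.32 on the high-fat diet. The means were 7.81 ± 0.69 and 9.23 ± 0.42 (SD, n = 3), which differed by 1.42 (standard error 0.38), or 2.67-fold. High-fat diet replicate 1 was only 0.41 above normal diet replicate 1, whereas 6 of the 9 pairs reached 2-fold. The differences of Vcam1 and Cx3cl1 were within 1 standard error of each other.

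Cxcl1 was the only member without a spot well above background on the normal diet. On that diet its probe read 2.49, 2.61 and 2.48, and none of these spots was well above background. On the high-fat diet it read 6.10, 5.32 and 3.39, all well above background. The means were 2.53 ± 0.07 and 4.94 ± 1.39 (SD, n = 3), with a measured difference of 2.41 (standard error 0.62). Because the normal diet level was not well above background, the fold is given against a floor. The floor is the higher of each normal diet array's own value and the lowest signal of a detected probe on it. Against it Cxcl1 on the high-fat diet was 3.94-fold higher. With looser definitions of the lowest signal, chosen after seeing the data, this fold was 4.64 or 5.32. The floor is not a strict limit. On normal diet replicate 2 the undetected Cxcl1 spot read 2.61, above the lowest detected signal of 2.49. A background model given below put the log2 difference at 0.58. High-fat diet replicate 3 stood well below the others, and without it the measured difference was 3.18, while 6 of the 9 pairs reached 2-fold. Before background subtraction Cxcl1 read 34.4 on high-fat diet replicate 3, below 48.3 and 48.8 on normal diet replicates 1 and 3. The scanner's own error for the high-fat diet spots reached 17.1% of the signal on replicate 3, against about 10% for the other members.

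The same 4 genes were then compared within slide 2, where only normal diet replicate 2 represents the normal diet. Each high-fat diet array was above it for every member, which follows from the separation of the groups given above. For Vcam1 the mean difference was 2.29 and 2.21 by its pair of probes, 4.89-fold and 4.63-fold. Single high-fat diet arrays were 4.12- to 5.99-fold and 4.15- to 5.62-fold above it. Cx3cl1 differed by 2.19 (4.57-fold, single arrays 3.32- to 5.91-fold). Selp differed by 1.60 (3.02-fold, single arrays 2.66- to 3.49-fold). These differences were larger than those from the 3 normal diet arrays, since normal diet replicate 2 was the lowest normal diet array for Vcam1, Selp and Cx3cl1. Cxcl1 read 5.02-fold above it in the mean, with high-fat diet replicates 1, 2 and 3 at 11.2-, 6.54- and 1.72-fold. Its reading on normal diet replicate 2 was not well above background, so these folds are not limits. The mean of the high-fat diet arrays was at least 2-fold above normal diet replicate 2 for 2.08% of kept probes and for all 5 members. Each high-fat diet array was at least 2-fold above it for 0.866% of kept probes and for 4 member probes, all but Cxcl1. The members were chosen on these same arrays, so nothing is read from these counts.

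**Figure D2:**
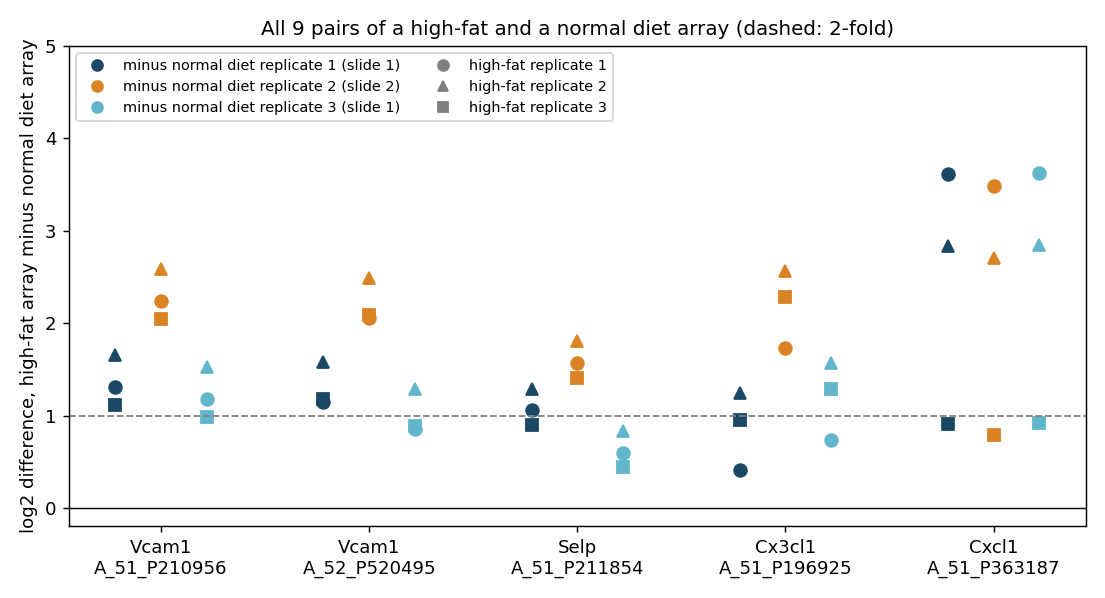
Difference in log2 signal (vertical axis) between each high-fat diet array (symbol) and each normal diet array (colour) for the 5 member probes, with a dashed line at 2-fold. All points lie above 0, those of Cxcl1 against normal diet readings not well above background, and for Vcam1, Selp and Cx3cl1 the differences from normal diet replicate 2 (orange) are the largest of each high-fat diet array.

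Against normal diet replicates 1 and 3 on slide 1 the differences were smaller, at 1.30 and 1.15 for Vcam1, 0.85 for Selp and 1.03 for Cx3cl1. Normal diet replicate 2 was below the mean of the other normal diet arrays by -0.99 and -1.06 for Vcam1, -0.74 for Selp and -1.16 for Cx3cl1. Cxcl1 was not well above background on these arrays, so no such shift is given for it. The share of kept probes in which normal diet replicate 2 was below both other normal diet arrays was 41.9%, and 4 of the 5 members were among them. A lower shift was found for 4.55% and 3.76% of kept probes (Vcam1), 9.66% (Selp) and 2.70% (Cx3cl1). Whether slide or animal set these shifts cannot be told apart. No member reached 2-fold in all 9 pairs, which 0.0466% of kept probes did.

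**Figure D3:**
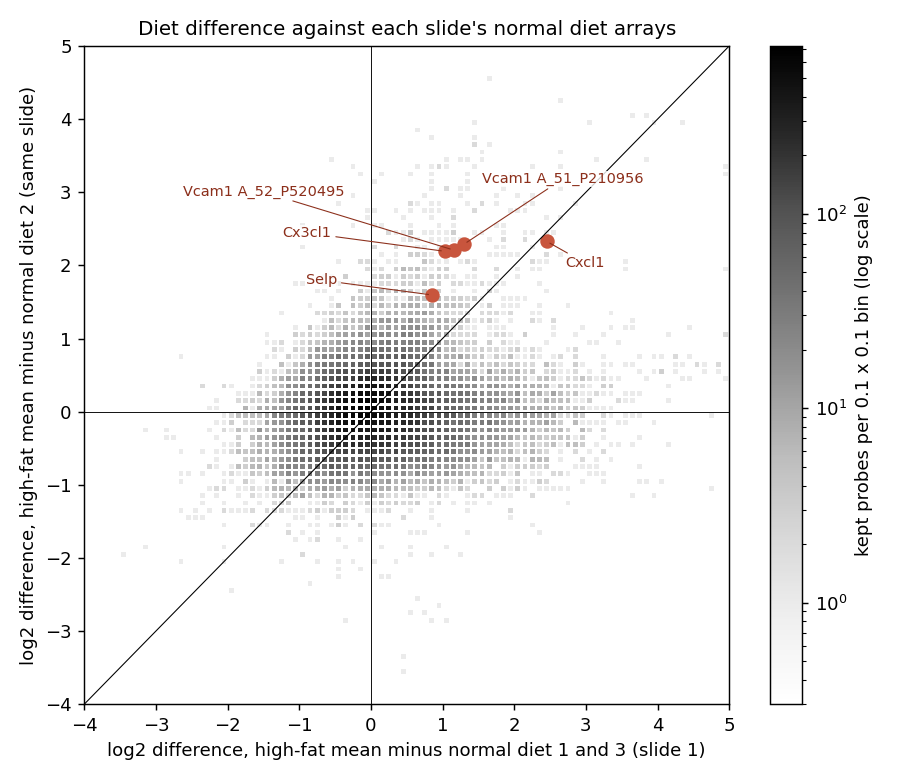
Mean of the high-fat diet arrays minus normal diet replicates 1 and 3 (horizontal axis, log2) against the same mean minus normal diet replicate 2 on the same slide (vertical axis, log2), with all kept probes as grey bins and the member probes in red. Vcam1, Selp and Cx3cl1 lie above the diagonal, at 1.60 to 2.29 on the vertical axis, and the position of Cxcl1 rests on background readings on the normal diet.

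Among the high-fat diet arrays, replicate 2 was the highest for Vcam1, Selp and Cx3cl1, whereas Cxcl1 was highest on replicate 1. The spread over the high-fat diet arrays was 0.54 and 0.44 for Vcam1, 0.39 for Selp, 0.83 for Cx3cl1 and 2.70 for Cxcl1. Profiles over the 6 arrays were compared as the root mean square difference of mean-centred log2 values. The Vcam1 probes were 0.10 apart, and Vcam1 was 0.30 and 0.24 from Selp and 0.28 and 0.24 from Cx3cl1. Selp and Cx3cl1 were 0.38 apart. Cxcl1 was 0.91 to 1.15 from every other member, with normal diet readings that were not well above background. These distances hold the diet difference that chose the genes and describe 6 arrays only.

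Names were available for 628 kept probes, all from the study's lists. A member's neighbours were sought among probes of other genes. The nearest of these to Vcam1 A_51_P210956 was the mast cell chymase Cma1 (0.22), followed by Ifi27l2a (0.24), Csf2rb (0.25), Sdc3 (0.25) and Frzb (0.26). For Vcam1 A_52_P520495 the nearest probes of other genes were Sdc3, the heparan sulfate proteoglycan syndecan 3 (0.18), the lncRNA FR044110 (0.20), Cma1 (0.21), Ifi27l2a (0.21) and Slamf7 (0.23). Selp was nearest to Samd5 (0.08), FR044110 (0.10), Ifi27l2a (0.13), Nnat (0.14) and the lncRNA FR060087 (0.14). Cx3cl1 was nearest to Frzb, a secreted Wnt antagonist (0.12), then to a lncRNA listed by its coordinates only (0.16), the lncRNA n415399 (0.21), Ly6g (0.23) and Vcam1 A_52_P520495 (0.24). Samd5, FR044110 and the lncRNA listed by its coordinates had no spot well above background on the normal diet, so their distances rest partly on background readings. The same limit holds for Cxcl1 itself, so its distances are given without a reading. The smallest were to the lncRNA ENSMUST00000149707 (0.58), Fgl1 (0.60), Cyp1a1 (0.61), the lncRNA FR204953 (0.71) and Rap2c (0.75).

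The other genes of recruitment were sought in lists written from general knowledge, with earlier results of these data known. A gene could be named only through the study's list, which was chosen on these arrays, so the counts below follow from that choice and are not independent evidence of direction. Of 18 endothelial adhesion molecules, 3 were named. Vcam1 and Selp were higher, and Podxl, podocalyxin, was lower by -1.01 but by only -0.54 against normal diet replicate 2. Of 37 chemokines Cx3cl1 and Cxcl1 were the only ones named. None of 18 leukocyte receptors and none of 6 shedding enzymes and decoy receptors was named, so Cx3cr1, Cxcr2, Itga4 and Selplg were not analysed here. Of 12 genes of glycan synthesis for selectin ligands and related glycans, St8sia4, a polysialyltransferase, had no spot well above background on the normal diet, so no difference is given for it. Fut2, a fucosyltransferase, was higher by 1.27 but by only 0.51 against normal diet replicate 2. It did not meet both criteria in the fit with a slide term. The difference in that fit is by construction the one against normal diet replicate 2, since slide 1 held no high-fat diet array. They are therefore not separate checks.

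Of 32 genes of the TNF and NF-kB response, 6 were named and all were higher, against 2.14% of all kept probes. They were Il1rn, the interleukin 1 receptor antagonist (difference 1.61), Tnfaip2 (1.35), Lrg1 (1.35), Bcl3, an NF-kB cofactor (1.27), the inflammatory caspase Casp4 (1.05) and Socs6 (1.03). Socs6 did not meet both criteria in the fit with a slide term, which 1.64% of kept probes met in the higher direction. Bcl3 read 5.06, 4.52 and 4.65 on the normal diet and 6.14, 6.09 and 5.80 on the high-fat diet, without overlap. The list that names these genes required a 2-fold difference, so nothing is read from their count. Tnf, Il1b, Il6, Nfkbia, Tnfaip3 and Icam1 were not named.

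**Figure D4:**
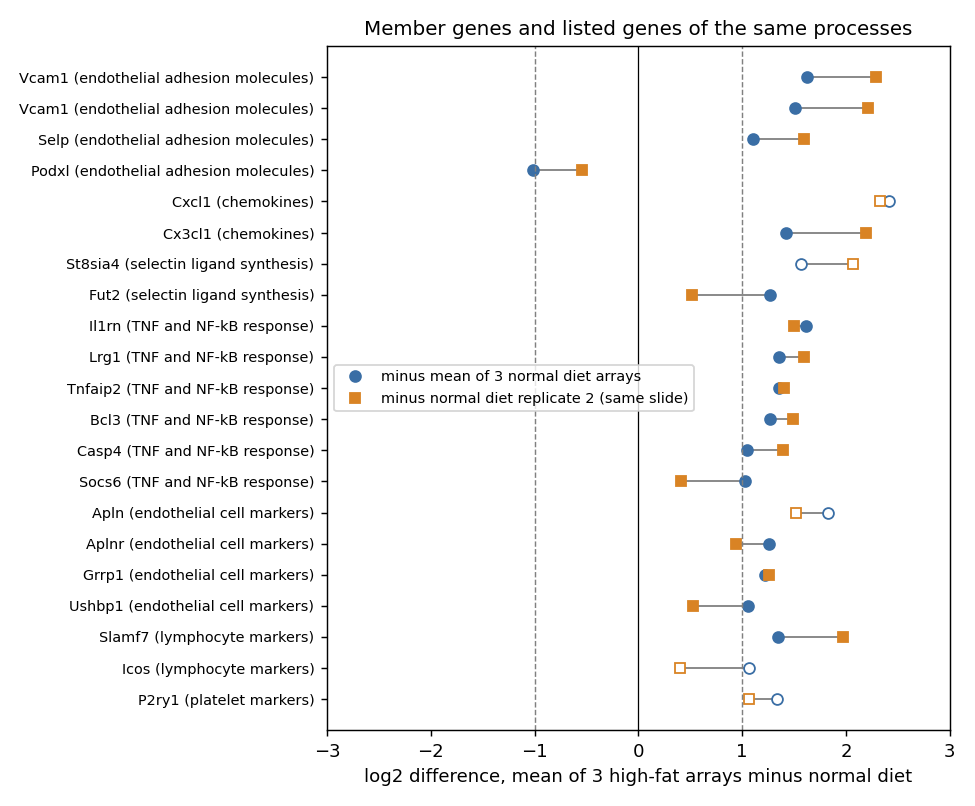
Mean log2 difference of the high-fat diet arrays (horizontal axis) from the 3 normal diet arrays (circles) and from normal diet replicate 2 (squares), for the member genes and listed genes of related processes, with dashed lines at 2-fold and open symbols for probes well above background on at most 1 normal diet array, whose positions rest on background readings. Podxl is the only gene shown with a negative difference, and Fut2, Socs6, Aplnr, Ushbp1 and Icos fall below 2-fold against normal diet replicate 2.

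Aorta is a mixture of cells, and in such bulk RNA more cells of a type and more RNA per cell cannot be told apart. Of 17 endothelial markers 4 were named, all higher, against 2.14% of all kept probes. Nothing is read from this count, since naming required a 2-fold difference. Cdh5 and Pecam1 were not among the named genes. Apln was not well above background on any of the normal diet arrays, so no difference is given for it. Aplnr differed by 1.26, Grrp1 by 1.22 and Ushbp1 by 1.06, and Aplnr and Ushbp1 did not meet both criteria in the fit with a slide term. Their summed linear signal was 495 to 866 on the normal diet and 1232 to 1464 on the high-fat diet. Most of this sum was Ushbp1. Of the 4 probes, 2 were highest on high-fat diet replicate 1 and 2 on replicate 3.

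Of 28 macrophage and myeloid markers 18 were named and all were higher, against 2.14% of all kept probes. The list that names them required a 2-fold difference, so nothing is read from this count. Cd200r4, Themis2 and Mefv did not meet both criteria in the fit with a slide term. Spp1, osteopontin, differed by 3.67, and by 5.55 against normal diet replicate 2. It read 9.29, 6.76 and 9.87 on the normal diet and 11.27, 14.09 and 11.57 on the high-fat diet, so its difference leans on replicate 2 of each diet. The dectin-1 gene Clec7a differed by 2.12, and by 3.38 against normal diet replicate 2, and the lysosomal marker Cd68 by 2.11 and 2.87. Cd180, Cd209a and Naip2 were not well above background on any of the normal diet arrays, and Cd200r4 was so on 1 of them, so no fold is given for these. Of the 18 probes, 16 were highest on high-fat diet replicate 2, as were Vcam1, Selp and Cx3cl1. So were 5 of the 6 TNF and NF-kB probes. No share over all kept probes is given, so nothing is read from the order of any list. The summed signal of the 18 was 3949 to 6740 on the normal diet and 12434 to 27057 on the high-fat diet. Without Spp1 it was 3841 to 5802 and 9438 to 9958, most of it Ctsz. The defining markers Adgre1, Csf1r, Cd14 and Lyz2 were not named. The part of these cells in the levels of Vcam1, Selp, Cx3cl1 and Cxcl1 was not tested.

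Of 10 platelet markers 2 were named, Selp itself and P2ry1, a platelet ADP receptor. Of 12 lymphocyte markers 2 were named, Slamf7 (difference 1.35) and Icos. P2ry1 and Icos were well above background on only 1 normal diet array, so no difference is given for them. Of 7 mast cell markers, Cma1 was higher by 1.25 and Mcpt9 was lower by -2.09. Of 9 smooth muscle markers, Synpo2 was the only gene named, lower by -1.03. In the fit with a slide term P2ry1, Icos, Mcpt9 and Synpo2 did not meet both criteria, and against normal diet replicate 2 Mcpt9 differed by -1.39 and Synpo2 by -0.83. Acta2 and Myh11 were not named, so the tissue label was not checked against them. None of 7 adipocyte markers was named.

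The member values were recomputed under other ways of processing. With the scanner's mean signals corrected by normexp, a background model, with an offset of 50, the differences were 1.40 and 1.37 for Vcam1, 1.24 for Cx3cl1, 0.96 for Selp and 0.58 for Cxcl1. The offset compresses low signals. The same correction gave 0.93 for Il1rn, 1.02 for Tnfaip2, 1.25 for Lrg1, 0.46 for Bcl3, 0.49 for Casp4 and 0.79 for Socs6. By this correction 0.482% of kept probes and 3 member probes, both of Vcam1 and that of Cx3cl1, were at least 2-fold higher. Against normal diet replicate 2 the shares were 0.498% of kept probes and 4 member probes, all but Cxcl1. As the members were chosen on these arrays, nothing is read from these counts either.

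**Figure D5:**
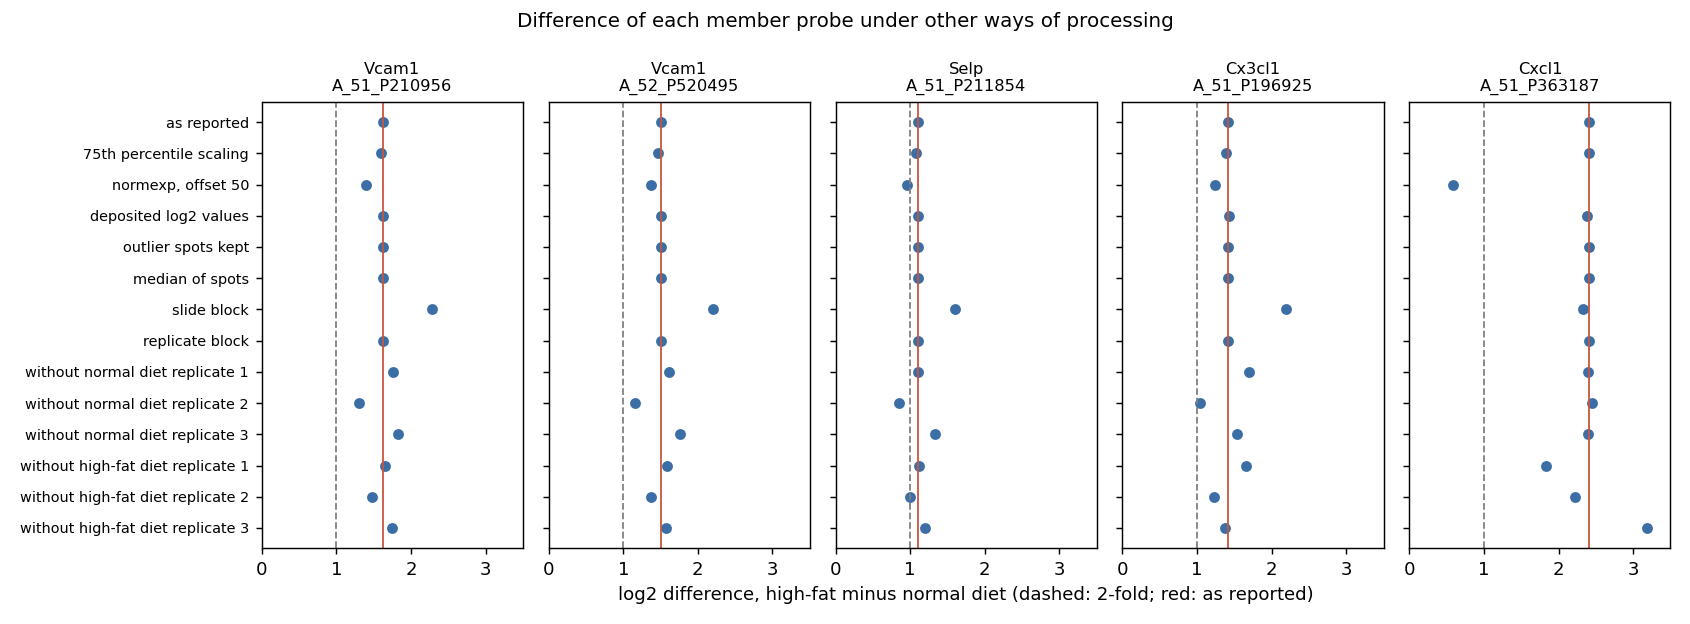
Difference in log2 signal, high-fat minus normal diet (horizontal axis), of each member probe as reported (red line) and under each alternative (points), with a dashed line at 2-fold. Vcam1 and Cx3cl1 stay above 2-fold under all alternatives shown, Selp goes below it under 3, and Cxcl1 falls to 0.58 with normexp.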

How the data were processed

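RNA from 6 aortas was measured on 1-colour Agilent arrays. The authors deposited the background-subtracted intensity and flags of each spot from Feature Extraction 10.7.1.1, and a table of log2 values, for which the methods state quantile normalization in GeneSpring before a t-test. Groups came from the labels.

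Here spots marked as outliers were left out, spots of a probe were averaged, values under 1 were set to 1, and quantile normalization followed on the log2 scale. Detection on an array required a share of 0.5 or more of a probe's spots to be significant, well above background and no outlier. The diet contrast used limma 3.58.1 (R 4.3.3), and the fit was tested on simulated data. Python 3.11.15 was used for the rest. The deposited and recomputed log2 values of the members differed by at most 0.048.

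Probes were named through the study's lists, of which 357 mRNA probes and 344 lncRNA probes matched the array and 10 lncRNA probe names did not. In 2 symbols a digit read for a letter was corrected. The fold changes and p-values in those lists were not used. The named genes were the members and up to 8 named genes of each list with the largest difference. The 5 named probes nearest to each member were added. Ctsz, Themis2 and Mefv were outside this rule. The members, lists and motifs were chosen with earlier results of these data known. Vcam1 has no entry in the promoter table used here, and proteins were not analysed here.

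The number of arrays, 3 a group, limits the precision. Alternatives were other scaling, background correction, spot averaging and filters, a variance prior with an intensity trend and the methods' t-test. The slide or the replicate number was also used as a block, and each array was left out. Other floors for the fold of Cxcl1 were added after seeing the data.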

Additional observations from a re-analysis of the deposited data

How the results depend on the processing

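Every member difference stayed above 0 under each alternative run. With 1 spot per array, no outlier spots and a balanced block, 15 of the recomputed differences of the members could not move, or only through the normalization. Of the other 50, 45 moved by less than 1 SD between replicates. The others were those with the slide as a block and Cxcl1 with normexp, at 0.58. The slide as a block gave 2.29 and 2.21 for Vcam1, 1.60 for Selp and 2.19 for Cx3cl1. By construction these are the differences from normal diet replicate 2, since slide 1 held no high-fat diet array. Against normal diet replicate 2, normexp moved Vcam1 A_51_P210956 to 1.92 and Cxcl1 to 0.61, and 28 of the 30 values that could move did so by less than 1 SD. With each array left out in turn, differences ranged from 1.30 to 1.83 and 1.15 to 1.75 for Vcam1, 0.85 to 1.34 for Selp, 1.03 to 1.69 for Cx3cl1 and 1.83 to 3.18 for Cxcl1. Against normal diet replicate 2 they ranged from 2.14 to 2.41 and 2.07 to 2.29, 1.49 to 1.69, 2.01 to 2.42 and 1.75 to 3.10. The log2 difference of Cxcl1 from its floor was 1.98, or 2.21 and 2.41 with the looser floors added after seeing the data.

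Of all kept probes, 1377 were higher by both criteria. This count was 205 with normexp, 525 among probes detected on all 6 arrays and 360 by the methods' t-test. Leaving out an array gave 725 (normal diet replicate 1), 911 (high-fat diet replicate 3) to 4271 (normal diet replicate 2, in a fit where diet and slide cannot be told apart). Of the 37 list probes other than members, 34 were higher, 25 with the slide as a block and 7 with normexp. By Pearson correlation 11 of the 25 nearest probes were the same. Replicate numbers did not pair the samples, with correlations of same-numbered deviations of -0.26, -0.21 and -0.04. With the replicate number as a block, 1611 probes were higher, and the member differences are the same by construction. The causes were not tested. Cxcl1 on the normal diet is limited by signal over background.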
